A study of Mus musculus with 9 samples.

Results

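The 3 libraries labelled SAHH-het, out of 9 in all, were compared with the 6 libraries of the other groups pooled, to describe what sets vascular tissue of the untreated heterozygous mice apart. Members were taken by label alone. The 3 others labelled SAHH-WT carried wild-type SAHH (genotype ApoE-/-/SAHHWT), and the 3 labelled SAHH-het+betaine carried the same heterozygous genotype as SAHH-het (ApoE-/-/SAHH+/-) and received betaine. By the labels every group shared the ApoE-null background, the C57BL/6 strain, an age of 24 weeks and vascular tissue as the source. The sources used here do not give the dose and length of betaine, how the null alleles were made, the vessel taken or whether each library is a separate animal. The p-values therefore measure the spread between these libraries, part of which may be technical. SAHH-het is used below as the label of the 3 libraries.

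SAHH, encoded by Ahcy, splits S-adenosylhomocysteine, the product left when a methyl group is handed on, into homocysteine and adenosine. S-adenosylhomocysteine inhibits methyltransferases, and betaine donates a methyl group that turns homocysteine back into methionine. Apolipoprotein E, encoded by Apoe, is the ligand by which remnant lipoproteins are cleared, and mice without it carry high plasma cholesterol and develop atherosclerosis.

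In this comparison 5 genes were higher in SAHH-het and none was lower. Apoe and its neighbour Apoc1 were among them, at 34.0 and 12.1 times the mean FPKM of the other libraries. The other 3 were the mitochondrial glycine tRNA gene mt-Tg, the glutathione transferase gene Gstt2 and the kinase gene Map3k6. Ahcy was lower in every SAHH-het library but did not pass. Among genes that did not pass, 7 of 7 MHC class II genes, 9 of 17 collagen and elastic fibre genes and 7 of 13 fibroblast markers lay below all other libraries, and 4 of 17 endothelial markers lay above them. Of all 15610 genes tested, 2.92% lay below and 3.09% above all other libraries. These are 4 of 48 lists.

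FPKM, the unit of every level here, are fragments per kilobase of exon, scaled between libraries. The deposited scale followed median-ratio size factors, which set the median gene equal between libraries, to within -0.68 to 0.81%. Against the totals of recovered fragments it ran from -18.3% in SAHH-het+betaine 3 to 35.3% in SAHH-WT 1. A difference is a log2 difference of means on log2(FPKM + 0.5), SAHH-het minus the other 6, which understates the change of low genes. limma called a gene at a Benjamini-Hochberg adjusted p under 0.05 over the 15610 genes that averaged 0.5 FPKM or more. The 5 calls are 0.032% of these genes. At an unadjusted p under 0.05, limma counted 988 higher genes (6.33%) and 636 lower (4.07%), or 10.4% in all. With voom on recovered fragments limma also called 5 higher and 0 lower. Those fragments were derived from the same FPKM under nearly the same scaling, so this is not an independent check. A gene is said not to overlap when all 3 SAHH-het values lay above, or all below, the other 6, which held for 483 genes higher (3.09%) and 456 lower (2.92%), or 6.02% in either direction. The median difference over all genes tested was 0.00, with 50.3% of them above 0. In bulk tissue, fewer cells of a type and less RNA per cell cannot be told apart.

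The libraries held 15837599 to 17381974 recovered fragments each. Genes of other tissues varied within groups and were not balanced between them. The summed FPKM of 10 adrenal cortex genes was 10741 in SAHH-WT 1 and 16.2 to 31.7 in the other 8 libraries. That of 11 skeletal muscle genes was 11045, 713 and 3.83 in SAHH-het 1 to 3 and 5.61 to 3013 in the other 6. The sum of 9 cardiac muscle genes was 18.9 to 184 in SAHH-het and 28.4 to 1358 in the other 6. All 9 cardiac differences were below 0 (median -2.83). All 11 skeletal differences were above 0 (median 1.34, but -0.71 without SAHH-het 1). No gene of either muscle list was without overlap. Among markers of the labelled tissue, the smooth muscle myosin gene Myh11 measured 8.23 to 19.9 FPKM in SAHH-het and 4.76 to 24.2 in the others, and the endothelial cadherin gene Cdh5 measured 77.1 to 171 and 32.1 to 93.4. Of fat cell genes, the brown fat uncoupler gene Ucp1 measured 1600 to 2626 FPKM in SAHH-het and 18.0 to 5768 in the other 6.

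The labels name a pair of loci, and the 250 bases before the RefSeq start of each gene are shown because the RNA of both sets the SAHH-het libraries apart. Apoe (ENSMUSG00000002985) lies on the minus strand of chromosome 7, 19696109 to 19699188, and its upstream window is chr7:19699189-19699438. Ahcy (ENSMUSG00000027597) lies on the minus strand of chromosome 2, 155059310 to 155074497, and its window is chr2:155074498-155074747. Sequences are from RefSeq on GRCm38.p6, read 5′ to 3′ on the gene's strand, and capitals mark the only motif matches.
Apoe promoter: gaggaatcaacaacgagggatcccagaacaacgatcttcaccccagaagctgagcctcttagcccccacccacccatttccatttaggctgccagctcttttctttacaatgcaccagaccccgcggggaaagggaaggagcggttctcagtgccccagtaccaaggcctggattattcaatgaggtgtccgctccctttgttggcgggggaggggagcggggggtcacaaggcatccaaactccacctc
Ahcy promoter: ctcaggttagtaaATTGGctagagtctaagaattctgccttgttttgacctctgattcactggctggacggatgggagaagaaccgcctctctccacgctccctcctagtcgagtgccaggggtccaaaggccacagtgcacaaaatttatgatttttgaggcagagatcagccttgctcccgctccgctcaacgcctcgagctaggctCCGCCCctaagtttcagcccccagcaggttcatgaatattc
Both strands were searched for 4 motifs, none of which overlapped another. The GC box was read as GGGCGG, the TATA box as TATAAA, the E-box as CACGTG and the CCAAT box as its name spells. The Ahcy window held a GC box and a CCAAT box, both on the opposite strand. Of 32851 windows of the same length, 32.7% held a GC box and 33.9% a CCAAT box. The Apoe window held none of the 4, and the motifs in neither window were found in 12.4% (TATA box) and 6.02% (E-box) of windows. A match is a run of letters and not a bound site.

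Ahcy RNA measured 3.48, 3.89 and 4.75 FPKM in SAHH-het libraries 1 to 3. It measured 11.5, 7.17 and 7.98 FPKM in SAHH-WT and 7.66, 9.70 and 8.63 in SAHH-het+betaine. The 3 SAHH-het libraries were the lowest of the 9 and did not overlap the rest, while the SAHH-WT and SAHH-het+betaine libraries overlapped each other. The mean was 4.04 ± 0.649 FPKM (SD, n = 3) in SAHH-het against 8.78 ± 1.61 (SD, n = 6), a ratio of 0.460. The log2 difference was -1.02 (95% interval -1.41 to -0.63; SE 0.17), with an adjusted p of 0.232 from limma. SAHH-het+betaine minus SAHH-WT was -0.02 for Ahcy (95% interval -0.49 to 0.46), although the labels give the betaine-treated mice the same heterozygous genotype.

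Apoe RNA stood at 149, 223 and 225 FPKM in SAHH-het 1 to 3. The SAHH-WT libraries measured 2.91, 4.35 and 6.11 FPKM and the SAHH-het+betaine libraries 5.51, 8.88 and 7.32. The lowest SAHH-het library thus held 16.8 times the level of the highest other library, and all 9 carry the ApoE-null label, so the label and the RNA of the 3 SAHH-het libraries go against each other as far as RNA can tell. The sources used here do not say which part of Apoe the null allele removes. The log2 difference was 5.02 (95% interval 4.33 to 5.71), with an adjusted p of 0.000432 from limma.

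Apoc1 (ENSMUSG00000040564), which encodes a small apolipoprotein that inhibits lipase and lipid transfer, ends 3448 bases from Apoe on the same strand. It measured 355, 158 and 286 FPKM in SAHH-het 1 to 3, 19.1, 22.2 and 18.6 in SAHH-WT and 21.9, 28.6 and 21.8 in SAHH-het+betaine. The order of the SAHH-het libraries differed between the neighbours: SAHH-het 1 was the lowest for Apoe and the highest for Apoc1. The log2 difference was 3.50 (95% interval 2.93 to 4.07; adjusted p 0.00104 from limma). Exact two-sided permutation tests of the mean log2 value, 3 libraries against 6, gave p = 0.0238 for each of Apoe, Apoc1 and Ahcy, the smallest value that 84 splits allow. These 3 genes were named for the comparison with their direction already known, so their p-values are not independent evidence.

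**Figure D1:**
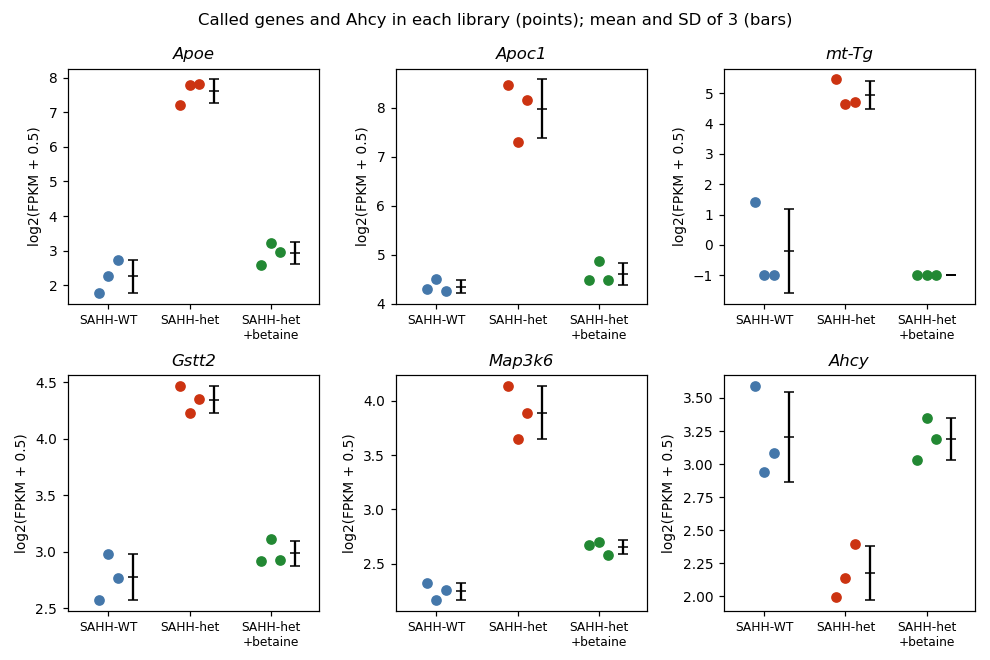
Levels of the 5 called genes and Ahcy in each library, on log2(FPKM + 0.5), with groups on the horizontal axis; points are libraries and bars the mean and SD of 3. In all 6 panels the 3 SAHH-het points lie apart from the other 6, above them for the called genes and below them for Ahcy.

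Around Apoe, a larger share of genes did not overlap than over the genome, a difference given without a test. Of 101 genes tested within 5 Mb on either side, Apoe left out, 10 were higher and 1 lower without overlap, or 10.9% against 6.02% of all genes. The share was 9.80% of 51 genes within 1 Mb, 9.62% of 52 within 2 Mb and 9.50% of 221 within 10 Mb. Apoc1, named in advance, is counted in each window and was the only gene in them called. Over the whole of chromosome 7, 59 of 1182 tested genes were higher and 20 lower, 6.68% in all. Around Ahcy, 4 of 131 genes within 5 Mb did not overlap (3.05%), and none of 30 within 1 Mb.

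The members of the Apoe window other than Apoc1 had small differences. Inafm1 (a small membrane protein gene, 3.42 Mb away) measured 25.5, 18.7 and 22.3 FPKM in SAHH-het and 7.60 to 13.2 in the other 6, a log2 difference of 1.03 (adjusted p 0.232, limma). Smg9, a gene of nonsense-mediated decay 4.70 Mb away, measured 5.76, 5.34 and 5.18 FPKM against 2.57 to 4.01. Tmem160 measured 70.1, 56.5 and 52.1 FPKM against 23.1 to 45.3. Ercc1, a nucleotide excision repair gene 0.34 Mb away, measured 11.9994, 20.4 and 7.88 FPKM against 4.85 to 6.91. The adjusted p of these last 3 was 0.279, 0.299 and 0.299, so none passed.

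Among 10 tested neighbours listed for the Apoe cluster, Apoc1, Bcam and Nectin2 did not overlap (30%, against 6.02% of all genes). Apoc1 had been named in advance. The list's median difference was 0.34. Bcam, a laminin receptor gene, measured 49.7, 83.4 and 42.1 FPKM in SAHH-het and 21.5 to 39.2 in the other 6. Nectin2, a cell adhesion gene, measured 25.8, 27.0 and 23.4 FPKM against 12.6 to 21.6. The adjusted p of Bcam and Nectin2 was 0.352 and 0.388 (limma), so neither passed. The lowest SAHH-het value of Apoc1 was 5.53 times the highest other value, while those of Bcam and Nectin2 lay close to it. Outside the 5 Mb window, Cyp2b10, a cytochrome P450 gene picked after its values were seen, measured 20.5, 8.67 and 33.1 FPKM in SAHH-het, 0.0464, 1.58 and 6.39 in SAHH-WT and 0.252, 1.02 and 0.289 in SAHH-het+betaine (log2 difference 3.75, adjusted p 0.266, limma).

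**Figure D2:**
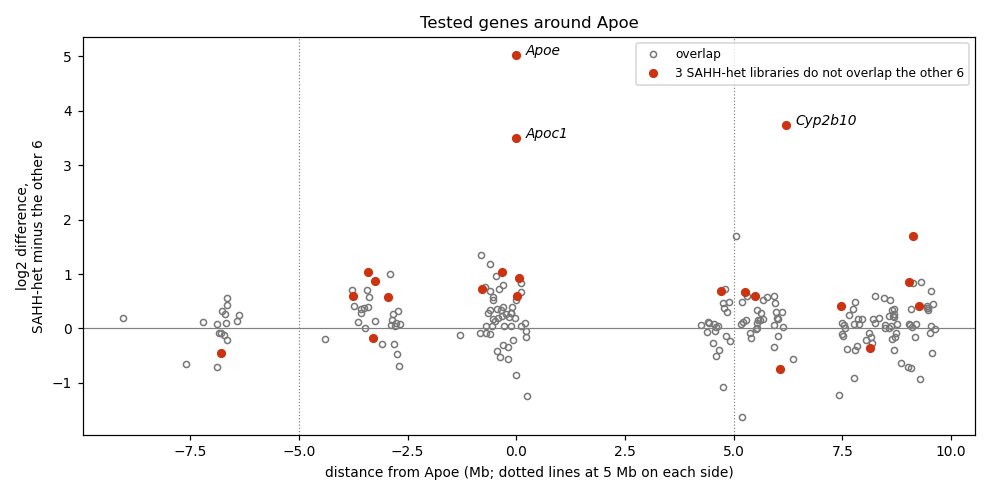
Log2 difference (SAHH-het minus the other 6) of each tested gene against its distance from Apoe in Mb; filled points are genes whose SAHH-het libraries do not overlap the others, and dotted lines stand 5 Mb away. Apoe at 5.02 and Apoc1 at 3.50 lie far above the genes beside them, whose median within 5 Mb is 0.19.

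The called gene mt-Tg encodes the mitochondrial tRNA for glycine. It is 68 bases long and lies between mt-Co3 and mt-Nd3 on the mitochondrial chromosome, at 9391 to 9458. It is shown with its anticodon in capitals, since it was the only mitochondrial gene called. Below it stand the first bases of mt-Nd3 (chrM:9459-9518), a complex I subunit gene, and of its nuclear copy Gm28438 on the minus strand of chromosome 1 (chr1:24613060-24613119), with their only difference in capitals. Sequences are from GENCODE M21 on GRCm38.
mt-Tg: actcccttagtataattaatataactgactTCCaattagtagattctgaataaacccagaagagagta
mt-Nd3: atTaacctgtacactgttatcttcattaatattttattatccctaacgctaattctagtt
Gm28438: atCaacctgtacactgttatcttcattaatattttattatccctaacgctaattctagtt
mt-Nd3 and its copy matched at 344 of 345 aligned bases, the exception being T3C (mt-Nd3 base, position from 1 at the 5′ end of mt-Nd3, base of the copy).

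Fragments on mt-Tg numbered 41, 30 and 26 in SAHH-het 1 to 3, 3 in SAHH-WT 1 and 0 in the other 5 libraries. The rate was 67.4 times higher in SAHH-het over the groups, with an exact 95% interval of 22.4 to 333 that covers counting error only. In FPKM mt-Tg was 43.6, 24.7 and 25.6 against at most 2.16, and the log2 difference of 5.54, which depends on the pseudocount, had an adjusted p of 0.00919 from limma. The call was lost with a pseudocount of 0.1 (adjusted p 0.0698), under TPM (0.0616), and without SAHH-het 1 (0.109), 2 (0.0578) or 3 (0.0543).

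The next genes along the chromosome, mt-Nd3 and the arginine tRNA gene mt-Tr, did not overlap either, though neither passed. mt-Nd3 measured 762, 326 and 360 FPKM in SAHH-het, 79.5, 102 and 309 in SAHH-WT and 98.1, 167 and 254 in SAHH-het+betaine (log2 difference 1.59, adjusted p 0.373 from limma). mt-Tr measured 70.2, 23.0 and 11.8 FPKM in SAHH-het, 8.65, 0.82 and 6.49 in SAHH-WT and 2.61, 2.26 and 1.12 in SAHH-het+betaine (log2 difference 3.07, adjusted p 0.279). These 3 adjacent genes were the only ones of 34 tested on the mitochondrial chromosome without overlap, which is 8.82% against 6.02% of all genes. The 13 protein-coding genes of that chromosome had a median difference of 0.12 (with 1 library left out, from -0.11 in the absence of SAHH-het 1 to 0.38 in that of SAHH-het 2), and the cytochrome oxidase gene mt-Co1 measured 20980 to 39329 FPKM in SAHH-het and 17688 to 52156 in the others.

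Because mt-Nd3 and Gm28438 are nearly identical, how their fragments were divided depends on the authors' alignment and counting. Of the fragments on both, the share placed on mt-Nd3 was 71.8%, 67.9% and 71.1% in SAHH-het 1 to 3. It was 64.9%, 24.5% and 43.9% in SAHH-WT and 37.0%, 28.6% and 38.6% in SAHH-het+betaine. The SAHH-het shares were thus the highest, with SAHH-WT 1 nearest. The sums over both genes overlapped, at 5102, 2981 and 2631 fragments in SAHH-het and 869 to 3883 in the other 6. At mt-Co3 and its copy Gm28437, identical over 783 aligned bases, the share overlapped as well, at 53.3 to 75.3% in SAHH-het and 56.1 to 65.8% in the rest. The called gene mt-Tg borders both mt-Co3 and mt-Nd3. On chromosome 1, Gm28438 ends at 24613119 and Gm28437 starts at 24613189, and the bases between them were not compared with mt-Tg. How fragments at mt-Tg were placed may therefore also depend on the authors' alignment and counting. The split and the sums were examined after the mitochondrial values were seen. The part that read placement plays, at mt-Tg included, was not tested.

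**Figure D3:**
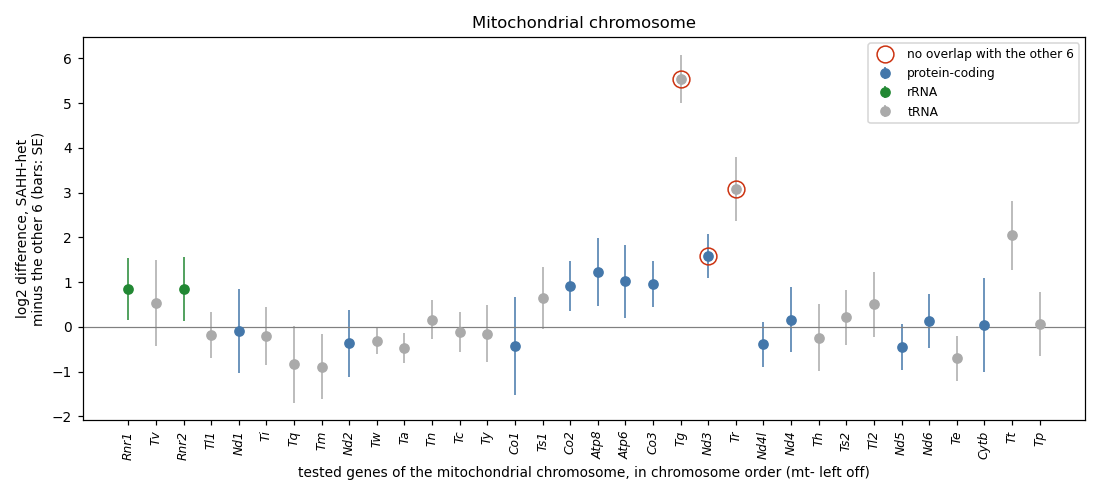
Log2 difference (SAHH-het minus the other 6, bars are SE) of the 34 tested mitochondrial genes in chromosome order, by kind of gene; rings mark genes without overlap. The 3 rings are neighbours, mt-Tg at 5.54, mt-Nd3 at 1.59 and mt-Tr at 3.07, while most other genes lie within 1 of zero.

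Gstt2 (ENSMUSG00000033318, chromosome 10, 75831114 to 75837424), a theta-class glutathione transferase gene, had the smallest SE of the log2 difference among the calls (0.15). Its level was 21.5, 18.2 and 19.9 FPKM in SAHH-het, 5.45, 7.38 and 6.31 in SAHH-WT and 7.05, 8.13 and 7.11 in SAHH-het+betaine. Each SAHH-het library was at least 2.24 times the highest of the others. The log2 difference was 1.47 (95% interval 1.14 to 1.79; adjusted p 0.00919 from limma). With the replicate number as a block the adjusted p was 0.1002, under TPM 0.130, and without SAHH-het 1 or 3 it was 0.109 and 0.0543, so the call was lost in these settings. Among 16 tested glutathione transferase genes Gstt2 was the only one without overlap (6.25% of the list, against 6.02% of all genes). The list's median was 0.19 (0.43 without SAHH-het 2 and 0.10 without SAHH-het 1, and near 0 without SAHH-het 3). Gstt1, the theta-class neighbour of Gstt2, measured 20.8, 16.96 and 22.1 FPKM in SAHH-het and 9.96 to 21.4 in the other 6, so the groups overlapped. Within 1 Mb of Gstt2, 4 of 31 genes did not overlap (12.9%, against 6.02% of all genes), namely Ddt higher and Col6a1, Col6a2 and Zfp280b lower. Within 5 Mb, 9 of 137 genes were higher and 4 lower without overlap (9.49%). Col6a1 and Col6a2 are also counted in the collagen list below. Ddt, the gene of D-dopachrome tautomerase, measured 52.1, 52.6 and 65.8 FPKM against 8.69 to 41.1.

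Map3k6 (ENSMUSG00000028862, chromosome 4, 133240818 to 133252929) encodes a kinase at the head of stress-activated MAP kinase cascades. Its level was 17.1, 12.04 and 14.3 FPKM in SAHH-het, 4.48, 3.98 and 4.27 in SAHH-WT and 5.88, 5.99 and 5.47 in SAHH-het+betaine. The 3 groups did not overlap one another, with SAHH-WT lowest, SAHH-het+betaine between and SAHH-het highest. The log2 difference was 1.44 (95% interval 1.05 to 1.84; adjusted p 0.0424 from limma), the nearest to the threshold of the 5 calls, and the call was lost in 14 of 23 alternative settings, leaving out any single library included. Cd164l2, 16262 bases from Map3k6, measured 3.45, 3.13 and 2.49 FPKM in SAHH-het and 0.376 to 1.62 in the others (log2 difference 1.54, adjusted p 0.232). Map3k6 was the only stress-activated MAP kinase gene of 15 tested without overlap (6.67%, against 6.02% of all genes). The list's median difference was -0.04 (-0.090 to 0.023 with 1 library left out).

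Map3k6 was also listed among 14 tested glucocorticoid targets, of which 11 lay above 0 and 3 below, with a median of 0.62. Only Map3k6 and Fkbp5 did not overlap (14.3%, against 6.02% of all genes). The list's summed FPKM overlapped, at 680 to 976 in SAHH-het and 274 to 1071 in the other 6. The co-chaperone gene Fkbp5 measured 9.22, 7.77 and 11.2 FPKM in SAHH-het and 1.33 to 7.61 in the other 6, where SAHH-WT 1 was the nearest (log2 difference 1.48, adjusted p 0.352). Hsd11b1, whose enzyme regenerates active glucocorticoid inside cells, measured 36.1, 30.5 and 48.5 FPKM in SAHH-het, 12.5, 14.1 and 18.5 in SAHH-WT and 14.3, 17.8 and 20.3 in SAHH-het+betaine. The Hsd11b1 difference was 1.21 with an adjusted p of 0.232, and its groups did not overlap.

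Of the other genes with the smallest p among those higher without overlap, none passed limma's threshold. Kyat1, a kynurenine aminotransferase gene, measured 13.1, 11.4 and 11.2 FPKM in SAHH-het and 5.28 to 6.95 in the rest (log2 difference 0.95, adjusted p 0.120). Timp4, an inhibitor of matrix metalloproteinases, measured 33.5, 48.5 and 30.1 FPKM against 4.42 to 12.6, a difference of 2.05 (adjusted p 0.146). Galnt15, a gene that starts O-linked sugar chains, measured 21.6, 41.6 and 22.7 FPKM against 6.68 to 11.9. Trim3, a ubiquitin ligase gene, and Sec31b, a coat protein gene of secretory vesicles, differed by 0.87 and 0.88. For these last 3 the adjusted p was 0.232.

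The 12 genes with the smallest p among those lower without overlap included Ahcy. Ogn, which encodes the small proteoglycan osteoglycin, measured 6.91, 8.29 and 12.7 FPKM in SAHH-het, 31.1, 26.1 and 23.9 in SAHH-WT and 25.4, 19.2 and 25.6 in SAHH-het+betaine. Col1a2, a chain of type I collagen, measured 3.61, 3.86 and 5.54 FPKM against 9.98 to 24.7. Lum, the gene of lumican, measured 6.35, 4.23 and 7.58 FPKM against 13.2 to 29.5. Every SAHH-het value lay below all others in each case, with differences of -1.42, -1.71 and -1.55 and adjusted p of 0.127, 0.146 and 0.232 (limma).

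The remaining lower genes differed by -1.54 to -0.88. Loxl2, an enzyme gene of collagen crosslinking, measured 1.02, 1.16 and 0.979 FPKM against 2.21 to 3.85 (log2 difference -1.11). Thbs2, the gene of thrombospondin 2, measured 0.424, 0.807 and 0.794 FPKM against 1.40 to 2.44. Antxr1, a collagen-binding receptor gene, measured 1.10, 1.29 and 1.81 FPKM against 2.55 to 3.23. Cd55, which encodes an inhibitor of complement convertases, measured 2.44, 2.99 and 2.40 FPKM in SAHH-het, 7.52, 15.5 and 10.7 in SAHH-WT and 8.80, 5.05 and 6.56 in SAHH-het+betaine (log2 difference -1.54, adjusted p 0.237). Spon1, Olfml2b, Col6a3 and Fgl2 had differences of -1.47, -1.30, -0.91 and -1.38. None of the 12 passed.

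**Figure D4:**
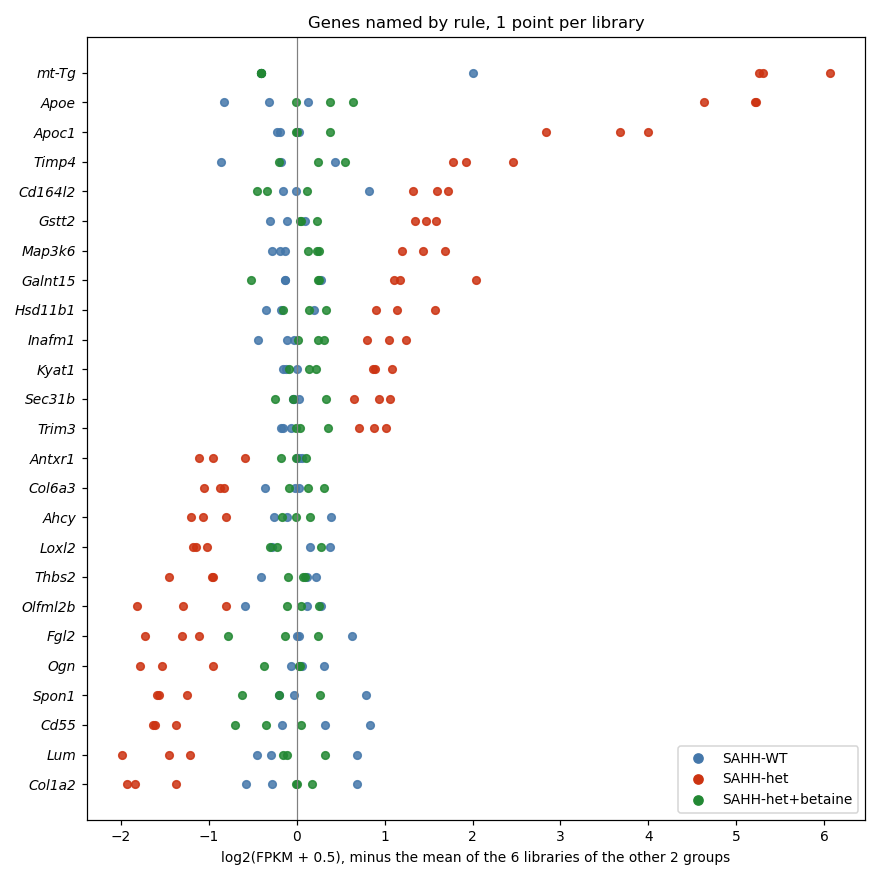
Value of each library for the 25 genes named by rule, on log2(FPKM + 0.5) minus the mean of the other 6 libraries, with 1 point per library coloured by group. In every gene shown the 3 SAHH-het points lie on 1 side of the other 6, from 5.54 on average for mt-Tg to -1.71 for Col1a2. Lack of overlap was a condition for naming, except for calls and genes named in advance, so it is not a result here.

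Lists of related genes were read against 6.02% without overlap and a median of 0.00 over all genes tested. In the list of collagens and elastic fibre genes, 9 of 17 tested lay below the other libraries without overlap, the median difference was -0.99 and 16 were below 0. The 9 were Col1a1, Col1a2, Col5a1, Col5a2, Col6a1, Col6a2, Col6a3, Col15a1 and the fibrillin gene Fbn1. Among them were Col1a1, at 2.71, 5.80 and 8.43 FPKM against 10.2 to 41.2, and Col6a1, at 7.07, 9.70 and 11.4 against 17.6 to 40.5. The type IV collagen chains of basement membranes overlapped, Col4a1 measuring 31.4 to 137 FPKM in SAHH-het and 41.4 to 77.1 in the others (difference -0.06), and Col4a2 35.5 to 109 against 34.2 to 62.9. Long genes were lower in SAHH-het in general: the median was 0.12 over the 3901 genes with the shortest exon length and -0.09 over the 3901 with the longest. Without overlap, 4.61% of the longest genes lay below the other libraries and 1.77% above. In the shortest genes these shares were 1.26% and 3.74%. The median exon length of the collagen list was 7833 bases, and the longest genes began at 6102. After a correction for exon length, added after seeing the data, the collagen median was -0.89.

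Of 13 adventitial fibroblast markers, all were below 0 and 7 did not overlap, with a median of -0.84. Dcn, the gene of decorin, measured 32.8, 44.1 and 54.5 FPKM in SAHH-het and 46.3 to 90.9 in the others (difference -0.61), and Gsn, the gene of gelsolin, 168, 214 and 314 against 277 to 400. The list's summed FPKM was 285, 350 and 473 in SAHH-het and 478 to 723 in the other 6, and no member was at 0 in any library. None of the 13 was called. Whether fewer fibroblasts were taken with the tissue was not tested.

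Matrix proteases and their inhibitors lay on both sides of 0. Timp4 and Cst3 lay above the others without overlap and Timp2 below, out of 16 tested, and the median was -0.42 (-0.18 without SAHH-WT 3). Timp2 measured 26.8, 28.1 and 35.7 FPKM in SAHH-het and 42.3 to 58.4 in the other 6, opposite to its family member Timp4. Cst3, the gene of the cathepsin inhibitor cystatin C, measured 562, 621 and 610 FPKM against 295 to 505. The groups of the cathepsin gene Ctsb overlapped, at 186 to 294 FPKM and 193 to 349.

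Of 17 endothelial markers tested, 16 had a difference above 0, 4 did not overlap (Sox17, Esam, Robo4 and Flt1) and the median was 0.78. Sox17, an endothelial transcription factor gene, measured 8.17, 12.1 and 5.97 FPKM against 2.71 to 4.84 (log2 difference 1.06, adjusted p 0.279), and Esam, a junction protein gene, measured 67.8, 89.3 and 43.6 against 21.6 to 39.2. Gpihbp1, which carries lipoprotein lipase across capillary endothelium, measured 101, 193 and 71.0 FPKM in SAHH-het and 16.8 to 46.2 in the others (log2 difference 1.82, adjusted p 0.266). SAHH-het 2 was the highest library for each of the 3. The list's median was 1.56 in SAHH-het 2 alone, 0.35 in SAHH-het 1 and 0.38 in SAHH-het 3, and without SAHH-het 2 it was 0.42. The lymphatic list had a median of -0.52 (-0.33 without SAHH-het 1) and smooth muscle genes -0.07 (with 1 library left out, from -0.26 in the absence of SAHH-het 2 to 0.23 in that of SAHH-het 3), with no member of either apart.

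All 7 MHC class II genes lay below the other 6 libraries without overlap, with a median of -1.67. H2-Aa, a chain of the molecule that presents peptides to helper T cells, measured 35.9, 33.9 and 45.3 FPKM in SAHH-het, 73.0, 343 and 189 in SAHH-WT and 176, 89.2 and 86.3 in SAHH-het+betaine. Cd74, the invariant chain, measured 84.7, 130 and 133 FPKM against 217 to 1100, and H2-Ab1 30.3, 37.0 and 44.6 against 65.1 to 298. The other 6 libraries ranged more widely than SAHH-het, and the adjusted p of the 7 lay between 0.300 and 0.445.

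Of 14 T and NK cell genes, all had differences below 0, 6 did not overlap and the median was -1.59. Cd3g, a chain of the T cell receptor complex, measured 0.199, 0.223 and 0.143 FPKM in SAHH-het and 0.495 to 6.00 in the others. The summed FPKM of the T and NK cell list overlapped, at 7.75 to 12.6 in SAHH-het and 10.3 to 107 in the others. The median of 13 B and plasma cell genes was -1.57, with only Cr2, the complement receptor of B cells, without overlap (7.69%, against 6.02% of all genes). Ighd measured 1.75, 1.38 and 1.38 FPKM in SAHH-het but 1.19 in SAHH-WT 1, against 6.43 to 89.1 in the other 5. The summed FPKM of the B cell list was 139 to 215 in SAHH-het and 121 to 2504 in the other 6. Class II and lymphocyte genes were highest in the same libraries, SAHH-WT 2 and 3 and SAHH-het+betaine 1, and the part of lymphocytes in the class II difference was not tested.

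Neutrophil genes had the highest median of the lists described, 1.93, with 11 of 12 above 0. Csf3r, the receptor for granulocyte colony-stimulating factor, was the only one without overlap, at 5.41, 17.6 and 4.42 FPKM against 0.888 to 3.41 (log2 difference 1.79, adjusted p 0.299). S100a8, a calcium-binding protein gene abundant in neutrophils, measured 204, 525 and 48.4 FPKM in SAHH-het, 104, 77.9 and 4.45 in SAHH-WT and 1.53, 8.30 and 4.51 in SAHH-het+betaine. The list's median was 1.78, 3.60 and 0.78 in SAHH-het 1 to 3, and 1.17 over the groups without SAHH-het 2. Macrophage genes had a median of -0.14, but leaving out SAHH-het 2, SAHH-WT 1 or SAHH-het 1 gave -0.53, -0.26 and 0.10, and leaving out SAHH-het 3 gave a value near 0. Foam cell genes had a median of -0.39 (-0.75 without SAHH-het 2 and -0.21 without SAHH-het 3), where Spp1, the osteopontin gene, lay below the rest at 1.76, 1.87 and 0.325 FPKM against 2.50 to 153.

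In the methionine cycle and transsulfuration list Ahcy alone stood apart among 12 tested genes (8.33%), and the median was -0.18 (-0.32 without SAHH-het 3). Mat2a, which makes S-adenosylmethionine, measured 37.5 to 42.4 FPKM in SAHH-het and 35.3 to 48.0 in the other 6. Gnmt, a glycine methyltransferase gene that uses up S-adenosylmethionine, measured 4.86, 2.78 and 3.11 FPKM against 1.01 to 4.45, with SAHH-WT 3 inside the SAHH-het range. The groups of the SAHH relative Ahcyl1 overlapped, at 40.4 to 114 FPKM and 28.2 to 125. None of 15 tested DNA and histone methylation genes was apart, and their differences ran from -0.36 to 0.28, the methyltransferase gene Dnmt3a measuring 1.46 to 2.13 FPKM in SAHH-het and 1.997 to 2.75 in the others.

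Lipid handling genes had no common direction. Of 18 genes for cholesterol efflux and lipoproteins, Gpihbp1 and Mylip lay above the other libraries and Abca1 below. Abca1, which exports cholesterol to lipid-poor apolipoprotein, measured 9.43, 16.6 and 18.5 FPKM in SAHH-het and 19.1 to 26.2 in the others (difference -0.65, adjusted p 0.388), and Mylip, whose product degrades the LDL receptor, 30.1, 56.5 and 29.8 against 9.78 to 28.4. None of 16 cholesterol synthesis genes was apart. Brown and white fat lists had medians of 0.65 and 0.47, which were 0.09 and 0.11 without SAHH-WT 1, the library lowest in fat genes. The white fat median was also 0.20 without SAHH-het 3, and that of brown fat 1.01 to 1.06 when SAHH-WT 3, SAHH-het+betaine 2 or SAHH-het+betaine 3 was left out. Respiratory chain genes of the nucleus had a median of 0.51 with none of 20 apart, but leaving out SAHH-WT 1, SAHH-het 1 or SAHH-het 2 gave 0.31, 0.30 and 0.94. In fatty acid oxidation 1 of 15 tested genes did not overlap (6.67%, against 6.02% of all genes). It was Etfb, an electron carrier gene, at 288, 153 and 142 FPKM against 18.5 to 91.7. The list's median was 0.14, but -0.24 without SAHH-het 3, -0.20 without SAHH-WT 1 and 0.57 without SAHH-het 2.

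Stress genes differed in small steps. In the unfolded protein list of 14, Ddit3, the gene of the transcription factor CHOP, measured 25.4, 19.7 and 19.3 FPKM in SAHH-het and 10.7 to 17.2 in the other 6 (difference 0.66, adjusted p 0.330). The chaperone genes Hspa5 and Canx lay below the rest without overlap, at differences of -0.30 and -0.37, and SAHH-het 3 and SAHH-het+betaine 1 were nearly equal for Hspa5. Nfe2l2, the gene of the factor NRF2, measured 24.3, 28.4 and 24.0 FPKM against 15.3 to 23.8, a difference of 0.24. No interferon-stimulated, immediate early, clock, cell cycle, senescence or ribosomal protein gene listed stood apart. Their medians lay between -0.39 and 0.26, and with 1 library left out from -0.79 for interferon-stimulated genes to 0.56 for clock genes, both without SAHH-het 2.

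**Figure D5:**
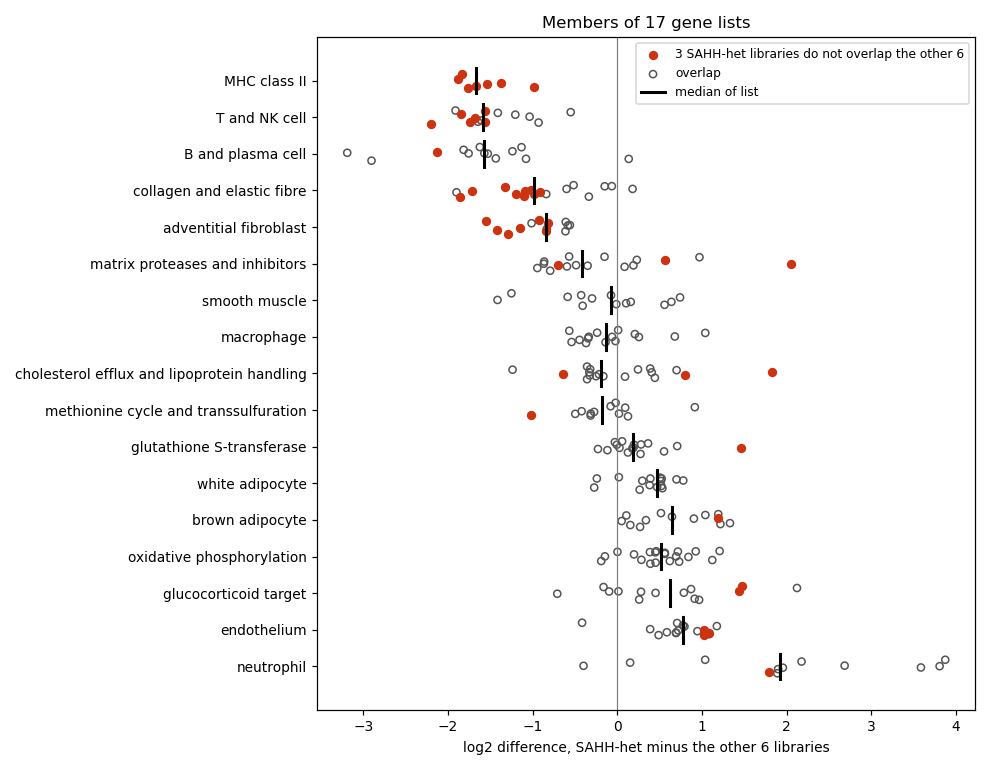
Log2 difference (SAHH-het minus the other 6) of each tested member of 17 gene lists, with filled points for members without overlap and a bar for the list's median. The class II, T cell, collagen and fibroblast lists lie mostly to the left of zero, and the endothelial and neutrophil lists mostly to the right.

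The pooled groups were also set against each other, since a gene apart from both need not be equal in them. SAHH-het+betaine minus SAHH-WT had 0 genes called by limma, 1251 at an unadjusted p under 0.05 (8.01%). For the called genes this difference was 0.67 in Apoe (95% interval 0.00 to 1.34), 0.26 in Apoc1 (-0.41 to 0.93), 0.21 in Gstt2 (-0.15 to 0.57) and 0.40 in Map3k6 (0.04 to 0.77). For mt-Tg, with 3 fragments over SAHH-WT and 0 over SAHH-het+betaine, the fitted value was -0.80 (-2.18 to 0.57) and depends on the pseudocount. The difference of SAHH-het from SAHH-WT was 5.36, 3.63, 1.57 and 1.65 for Apoe, Apoc1, Gstt2 and Map3k6, and that from SAHH-het+betaine was 4.69, 3.37, 1.36 and 1.24. Both differences use the same SAHH-het libraries.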

How the data were processed

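RNA of vascular tissue was sequenced in 9 mouse libraries. Alignment was by HISAT2 2.0.5 and the build mm10, per the submitters' processing notes, and per the series design text the authors compared groups with DESeq2 1.20.0. The sources used here give no counter or annotation. The authors deposited FPKM, normalized by the authors for exon length and between libraries, with 1 column per library. The scale between libraries followed median-ratio factors of the recovered fragments rather than their totals. Of 54532 genes, 54495 matched GENCODE M21 (GRCm38).

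Since FPKM are not counts, a log-scale test was used. The steps of the low values gave whole fragments (within 0.1) for 97.1 to 97.3% of values in each library. limma 3.58.1 (eBayes with a trend, R 4.3.3) was fitted two-sided to log2(FPKM + 0.5) of the 15610 genes averaging 0.5 FPKM or more, with means for SAHH-het and the other 6 libraries, and a second fit had 3 group means. The script was tested on simulated data. The members, lists and tests were chosen with earlier results of these data known.

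Genes named were Ahcy, Apoe and Apoc1, every call, and per direction the 12 with the smallest p among annotated genes without overlap that averaged 1 FPKM or more, without predicted genes, pseudogenes and short RNA genes. From each list up to 4 members were taken (2 by smallest p, 2 by highest mean), and from the windows up to 5. Others were picked after their values were seen. Of 48 lists with 626 genes, 590 were tested; no set test was run. Overlapping genes can share reads, on opposite strands where strand was not used and on the same strand in any case. Opposite-strand overlaps were annotated for Timp4, Hsd11b1, Cd164l2, Ogn, Fgl2, Ahcy, Cd55, Galnt15, Antxr1 and Loxl2. Same-strand overlaps were annotated for Sec31b, Trim3, Col1a2, Col6a3, Hsd11b1, Antxr1 and Loxl2. Whether reads were shared was not tested.

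Alternatives were pseudocounts of 0.1 and 1, other filters, TPM, median-ratio and quantile scaling, 3 group means, a replicate block, robust eBayes, sample weights, voom on the recovered fragments, a threshold of 0.1, each library left out, an exon length correction and other windows. Median-ratio scaling and voom kept nearly the scale of the deposited FPKM, and the threshold of 0.1 can only keep or add calls, so these are weak checks.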

Additional observations from a re-analysis of the deposited data

Results flagged for a closer look

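Of 83 named genes examined in the other 6 libraries, 7 had a library standing apart from the rest by more than Dixon's limit (a gap of over 0.625 of the range), where chance flags about 1 in 20 groups. For mt-Tg the highest was SAHH-WT 1 at 2.16 FPKM, with a gap of 1 of the range, since the other 5 were at 0. For Gnmt the highest was SAHH-WT 3 at 4.45 FPKM, with a gap of 0.697, and this library alone reached the SAHH-het values. For Nfe2l2 the lowest was SAHH-het+betaine 1 at 15.3 FPKM (0.875). SAHH-WT 1 was the library apart for 4 more: it was the lowest for Mylip, at 9.78 FPKM (0.651), and the highest for the clock gene Per2, at 9.91 FPKM (0.711), for the collagen chain gene Col6a1, at 40.5 FPKM (0.630), and for Tfpi, the gene of tissue factor pathway inhibitor, at 9.18 FPKM (0.650). SAHH-WT 1 was also the library with the adrenal cortex genes; their part in these values was not tested.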

How the results depend on the processing

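Apoe and Apoc1 were called in all 23 alternatives (adjusted p up to 0.0085 and 0.0181), with differences of 4.86 to 5.22 and 3.26 to 3.84. Gstt2 was called in 19 (lost under TPM, the replicate block, and without SAHH-het 1 or 3), mt-Tg in 18 (lost with a pseudocount of 0.1, under TPM, and without SAHH-het 1, 2 or 3) and Map3k6 in 9; no other named gene was called in any, and Ahcy ranged from -1.18 to -0.90. The number of genes called higher was 5, against 3 with a pseudocount of 0.1, 2 under TPM and 3 with the replicate block; leaving out 1 library it was 2 to 5, with 2 without SAHH-het 1. Fewer genes did not overlap under TPM, 316 higher and 265 lower, where the median of all genes was -0.10. Leaving out 1 library gave 510 to 1302 higher and 498 to 1253 lower, as fewer samples overlap less often (1302 and 1253 without SAHH-het 2, 1137 and 997 without SAHH-het 3; 762 and 786 higher without SAHH-WT 1 and SAHH-het 1). SAHH-het+betaine minus SAHH-WT gave 3 calls with no filter, 3 with sample weights and 0 to 2 with 1 library left out. Small differences changed sign: Mat2a (0.02) was -0.091 under TPM and -0.15 under quantile scaling, Myh11 (0.11) was -0.39 with sample weights, and with 1 library left out Mat2a ran from -0.025 to 0.079, Myh11 from -0.26 to 0.35, Col4a1 from -0.70 to 0.36 and Ctsb from -0.28 to 0.049. The share without overlap around Ahcy was 0% within 1 Mb. Apart from the construction named, the cause was not tested. The block is not a pairing given by the labels: libraries of SAHH-WT and SAHH-het that share a number correlated at 0.29, 0.23 and 0.18 and the other pairs at -0.35 to 0.08, and 4 of 9 libraries correlated best with their own number. Depth limits the mt-Tg value, which rests on 97 and 3 fragments.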
